A study of Homo sapiens with 6 samples.

Results

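The genes described here are 39 genes of glucose metabolism and of its regulation by hypoxia. They were chosen by name, with earlier results of these data known, out of the 33496 genes listed for each library. They comprise 2 glucose transporters, 4 hexokinases, 10 genes of the upper steps of glycolysis, 6 genes of the payoff steps, 4 genes of phosphoenolpyruvate synthesis and gluconeogenesis, 5 genes of pyruvate and lactate handling, and 8 hypoxia-inducible factors and hypoxia-induced genes. Of the 39, 37 were found by symbol in the deposited tables, and 34 reached a mean of 1 FPKM and were tested. HK3 and PCK1 were not analysed here, and PC, FBP1 and EGLN3 lay under the minimum.

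RNA was sequenced from ARPE-19, an established human cell line of retinal pigment epithelium (RPE) that grew out spontaneously in culture. All 6 libraries came from cells given erastin (5 μM, 24 h), an inhibitor of cystine import that starts ferroptosis, an iron-dependent form of cell death. The 3 libraries called Era had erastin alone, and the 3 called Era+VK had vitamin K1 (VK1; 10 μM, 1 h) before erastin. Erastin-free cells were not analysed here, so each difference below is VK1 with erastin against erastin alone, and the labels do not say that the 3 libraries of a group are separate cultures, so the tests measure the spread between these libraries only. Of 15 RPE markers looked up, 6 reached 1 FPKM in every library, namely MITF, OTX2, PMEL, RDH5 and the keratins KRT8 and KRT18. PMEL and RDH5 stayed at 1.42 and 2.48 FPKM or less. RLBP1, TYR, TYRP1, DCT, LRAT and SERPINF1 were under 1 FPKM in every library, and the visual cycle enzyme RPE65 was listed at no more than 0.02 FPKM. BEST1 varied from 0.60 to 56.98 FPKM between libraries, and TTR was not found by symbol.

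Glycolysis turns glucose into pyruvate in the cytosol. Transporters let glucose in, hexokinases trap it as a phosphate, the upper steps spend ATP to split the sugar, and the payoff steps return ATP and NADH. Pyruvate is then reduced to lactate and exported, or enters mitochondria, and phosphoenolpyruvate carboxykinases can run the path in reverse by making phosphoenolpyruvate from oxaloacetate. In low oxygen the factors HIF1A and EPAS1 (HIF-2α) are stabilised and raise many of these genes, and the RPE is known to spare glucose for the photoreceptors and to use lactate and other fuels.

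Values are FPKM, the fragments of a gene divided by its transcript length and by the library total, which allows levels of different genes to be compared per length. Between 11924 and 12027 genes per library reached 1 FPKM, and mitochondrially encoded genes held 16.0% to 18.5% of a library's FPKM. The files used hold no read counts and the depth of each library is unknown. A log2 fold change here is the difference, Era+VK minus Era, on the log2(FPKM + 1) scale, on which the change of a low gene appears smaller than it is. The 11981 genes that averaged 1 FPKM or more across the 6 libraries were fitted with limma, adjusted over all of them (Benjamini-Hochberg), and called at an adjusted p under 0.05. Era+VK replicates 2 and 3 stood apart from the other libraries in globin transcripts, whose 10 genes summed to 234.86 and 228.34 FPKM there and to 0.24 to 0.61 FPKM in the other 4 libraries. A list of 14 further erythroid genes summed to 12.51 and 13.16 FPKM in those libraries and to 5.52 to 6.71 FPKM in the other 4. The latter sums were nearly all EPOR, at 5.48 to 6.62 FPKM there and at 5.80 and 7.12 FPKM in Era+VK replicates 2 and 3. GATA1 was at 0 FPKM in the other 4 and at 2.35 and 2.27 FPKM in Era+VK replicates 2 and 3. Of the 12 erythroid genes found by symbol, 8 were higher in both of these libraries than in each of the other 4. The genes called below are also given without those 2 libraries.

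Over the 34 tested genes, 3 were called in limma and all 3 fell in Era+VK, namely PCK2, HKDC1 and EPAS1. Over all genes tested, 0.618% were called in either direction, 0.484% as lower and 0.134% as higher. No gene of the 34 was called higher, and 1 gene, ALDOC, had an unadjusted p under 0.05 in that direction against 7 in the lower one. Such a p was found for 15.8% of all genes tested, in either direction. The means of 25 of the 34 genes were lower in Era+VK and those of 9 were higher. The median log2 fold change of the 34 genes was -0.04. The median over all genes tested was 0.03, and the mean of 36.7% of them was lower with VK1. After median of ratios scaling, the median was -0.0747 over the 34 genes and 0.00135 over all genes tested. An unadjusted p under 0.05 in limma was then found for 12 of the 34 genes and for 1720 of all 11975 tested. The groups did not overlap, with every Era+VK library on one side of every Era library, for 8 genes in the lower and 2 in the higher direction. Over all genes tested, 22.1% were separated in this way, 7.04% as lower and 15.1% as higher. The log2 fold changes of 29 of the 34 genes were smaller than 0.15 in size, and together the 39 genes held between 3.19% and 3.30% of the FPKM of each library.

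**Figure D1:**
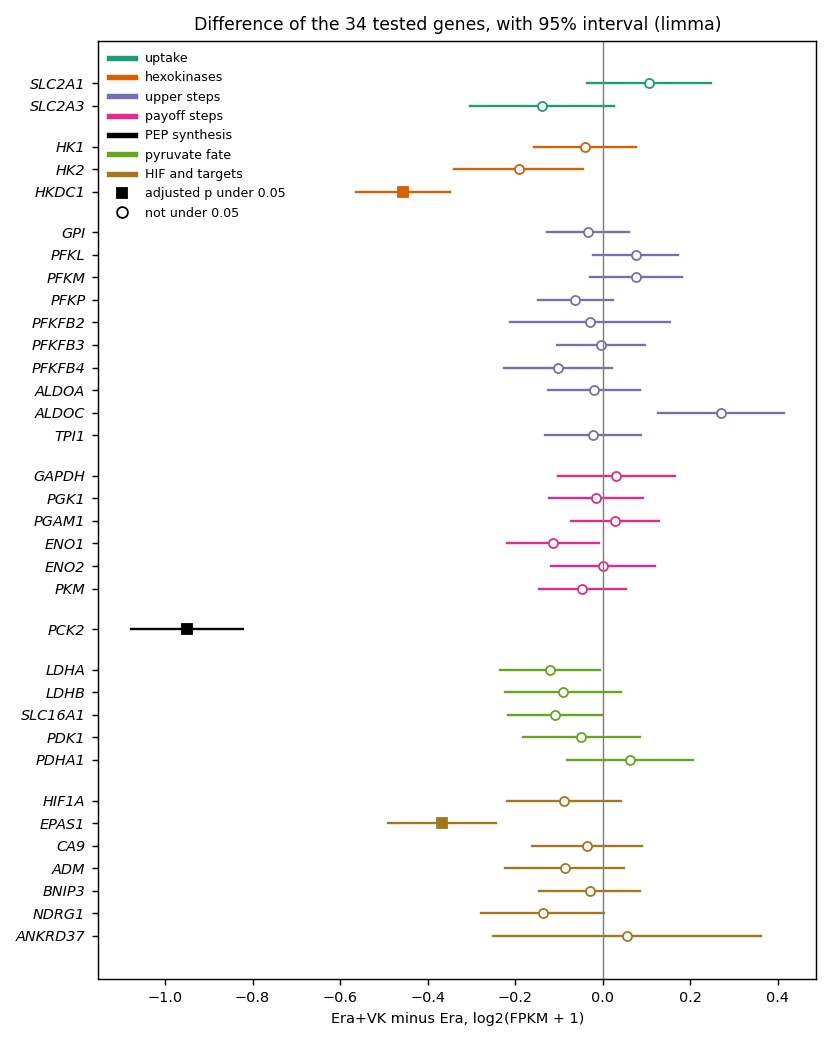
Difference of each of the 34 tested genes between Era+VK and Era on the log2(FPKM + 1) scale (horizontal axis), with its 95% interval from limma (line), grouped and coloured by step. Filled squares mark the 3 genes with an adjusted p under 0.05, all of them left of zero, with PCK2 at -0.95, HKDC1 at -0.46 and EPAS1 at -0.37, and most open circles lie within 0.15 of zero.

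PCK2 fell furthest. It encodes the mitochondrial phosphoenolpyruvate carboxykinase, which makes phosphoenolpyruvate from oxaloacetate inside mitochondria, and it is a known target of the stress factor ATF4. In Era replicates 1, 2 and 3 it was at 21.31, 20.59 and 20.60 FPKM, and in Era+VK replicates 1, 2 and 3 at 9.55, 10.43 and 10.96 FPKM. All 3 Era+VK libraries lay far under all 3 Era libraries, and the gap between the groups was wider than the range within either. The mean was 20.8 ± 0.413 FPKM in Era against 10.3 ± 0.712 FPKM after VK1 (SD, n = 3 each), so PCK2 fell by 50.5%. The log2 fold change was -0.95 (SE 0.06, 95% interval -1.08 to -0.82) and limma gave an adjusted p of 0.00241, the lowest p of all 11981 genes. It was the 8th lowest log2 fold change among them.

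The fall of PCK2 stood in each of the 14 alternative fits tried, with adjusted p in limma between 0.000374 and 0.0385 and log2 fold changes between -1.05 and -0.90. The value of -1.05 is the one without Era+VK replicates 2 and 3, so the difference was as large in the library with few globin transcripts. Against GAPDH, used as the reference transcript in the qPCR of the study, PCK2 stood at 7.21 to 7.43 per 1000 in the Era libraries and at 3.27 to 3.87 per 1000 in the Era+VK libraries. PCK2 was at 14.1% to 15.9% of the FPKM of ATF4 in Era and at 10.6% to 11.1% in Era+VK. The ratio of the 2 genes' FPKM was thus lower in every Era+VK library. It also moves when ATF4 does, and the FPKM of ATF4 are not given here. In bulk RNA, fewer cells with a transcript and less of it per cell cannot be told apart.

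PCK2 (ENSG00000100889) lies at chr14:24094053-24110598 on the plus strand of GRCh38 in GENCODE 29. It overlaps NRL, a photoreceptor gene on the opposite strand, which was at 0.04 to 0.14 FPKM. Whether the reads were counted by strand is not given in the sources used here.

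The remaining genes of phosphoenolpyruvate synthesis and gluconeogenesis were scarce. PC, pyruvate carboxylase, which makes the oxaloacetate that PCK2 uses, was at 1.09, 0.97 and 0.86 FPKM in Era and at 0.90, 0.84 and 0.94 FPKM in Era+VK, with overlapping groups and a mean under the minimum for a test. The ratio of PCK2 to PC was 21.6 ± 2.22 in Era and 11.6 ± 0.907 in Era+VK, without overlap. FBP1, the fructose bisphosphatase that opposes phosphofructokinase, was listed at 0.12 FPKM or less in every library. Of these 3 genes, PCK2 was the one above 1 FPKM in every library.

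HKDC1 was the second gene to fall. It encodes a hexokinase-like protein with the hexokinase domain, the latest described member of the family that phosphorylates glucose. HKDC1 was at 10.29, 9.89 and 10.67 FPKM in Era and at 7.10, 7.33 and 7.24 FPKM in Era+VK. The 3 Era+VK values lay close together and all under the lowest Era value. The mean was 10.3 ± 0.390 FPKM in Era against 7.22 ± 0.116 FPKM in Era+VK, so HKDC1 fell by 29.8%. The log2 fold change was -0.46 (SE 0.05, 95% interval -0.56 to -0.35) with an adjusted p of 0.0125 in limma, 11th in order of p among all genes tested and 90th from the lowest log2 fold change.

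The call of HKDC1 was lost in 5 of the 14 alternatives, while its log2 fold change stayed between -0.50 and -0.43. The adjusted p in limma was 0.0720, 0.0696 and 0.0665 without Era replicate 1, 2 or 3, and 0.0897 without Era+VK replicates 2 and 3, where the log2 fold change was -0.48, each with fewer libraries in the fit. With no filter on low values it was 0.0658 for HKDC1 and 0.121 for EPAS1, described below.

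HK2 and HK1, the hexokinases bound to mitochondria, were not called. HK2, known as the inducible form in tumours and as a hypoxia target, was at 29.29, 28.22 and 25.91 FPKM in Era and at 23.76, 22.93 and 25.98 FPKM in Era+VK. The groups overlapped, since Era+VK replicate 3 was above Era replicate 3. Its log2 fold change was -0.19 (95% interval -0.34 to -0.04), with an adjusted p of 0.217 in limma. HK1, the housekeeping form and the most abundant of the 3, was at 59.80, 57.93 and 57.70 FPKM in Era and at 55.00, 55.02 and 60.66 FPKM in Era+VK, and its log2 fold change of -0.04 had a 95% interval from -0.16 to 0.08.

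The shares of the hexokinase transcripts were described without a test, and a share also moves when another gene of the sum does. Of all single genes tested, 22.1% had groups without overlap. HKDC1 was 10.3% to 11.3% of the summed FPKM of the 3 genes in Era and 7.71% to 8.60% in Era+VK. HK1 was 60.2% to 61.2% in Era and 64.1% to 64.6% in Era+VK, again without overlap, although its FPKM overlapped. The share of HK2 overlapped. The sum of the 3 genes was 96.6 ± 2.59 FPKM in Era against 88.3 ± 4.81 FPKM in Era+VK. The groups' sums did not overlap, but they did once HKDC1 was left out (86.3 ± 2.74 and 81.1 ± 4.80 FPKM).

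HKDC1 (ENSG00000156510, chr10:69220303-69267559) and HK1 (ENSG00000156515, chr10:69269984-69401884) are neighbours on the plus strand of GRCh38, with 2424 bases between the end of HKDC1 and the start of HK1 in GENCODE 29. AL596223.1 and AL596223.2, antisense transcripts that overlap HKDC1, were at 0.12 to 0.45 FPKM and at 0.14 FPKM or less.

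The stretches upstream of HKDC1 and HK2 are printed because the 2 hexokinase genes differ in the short core that hypoxia-inducible factors bind, ACGTG or GCGTG on either strand (overlapping matches counted). They are taken from RefSeq promoters of GRCh38.p14, plus strand, each ahead of a RefSeq start and clear of the gene's own exons in GENCODE 29, at chr10:69220082-69220302 for HKDC1 and at chr2:74834920-74835169 for HK2, with any core in capitals. The HKDC1 stretch ends where the annotated gene begins, whereas the HK2 stretch lies inside the annotated gene, which begins further upstream at 74833981.
HKDC1: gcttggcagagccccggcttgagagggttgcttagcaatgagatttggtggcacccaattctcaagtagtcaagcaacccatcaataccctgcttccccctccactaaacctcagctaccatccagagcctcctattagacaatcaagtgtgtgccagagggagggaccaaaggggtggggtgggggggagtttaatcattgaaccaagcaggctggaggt
HK2: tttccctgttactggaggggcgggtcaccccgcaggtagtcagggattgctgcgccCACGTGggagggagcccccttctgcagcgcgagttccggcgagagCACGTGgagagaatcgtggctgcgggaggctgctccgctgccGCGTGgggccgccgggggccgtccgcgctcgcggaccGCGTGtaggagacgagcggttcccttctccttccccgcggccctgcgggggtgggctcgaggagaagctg
The HK2 stretch of 250 bases held 6 matches, between 194 and 70 bases upstream of the start, with each CACGTG counting on both strands. The HKDC1 stretch of 221 bases held none. Over all 35116 RefSeq windows of 250 bases, 43.2% held the core at least once, and 54.2% of the 59 windows of the genes described here did. A match is a description of letters, not of binding.

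Among the glucose transporters, SLC2A1 (GLUT1), the main carrier of glucose across the RPE, was at 227.95, 211.40 and 229.85 FPKM in Era and at 252.69, 223.62 and 244.32 FPKM in Era+VK. The groups overlapped, and the log2 fold change of 0.11 (95% interval -0.04 to 0.25) had an adjusted p of 0.446 in limma. SLC2A3 (GLUT3), a carrier of high affinity, was at 6.66 to 7.82 FPKM in Era and at 5.95 to 6.89 FPKM in Era+VK, with a log2 fold change of -0.14 and an adjusted p of 0.390 in limma. The groups of SLC2A3 overlapped as well. SLC2A1 was 29.4 to 32.5 times the FPKM of SLC2A3 in Era and 36.7 to 38.2 times in Era+VK, without overlap. This ratio was not tested, and 22.1% of all single genes tested had groups without overlap.

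None of the 16 genes of the upper and payoff steps was called in limma. An unadjusted p under 0.05 was found for 2 of them, ALDOC and ENO1, and for 15.8% of all genes tested. Their log2 fold changes ran from -0.11 to 0.27 with a median of -0.02, and 15 of the 16 were smaller than 0.15 in size. Summed, they were at 5989 ± 47.9 FPKM in Era and at 5973 ± 94.8 FPKM in Era+VK, a difference of -0.276%. The widest 95% interval bound among the 16 was 0.41 on the log2 scale, that of ALDOC, so larger differences lie outside their intervals.

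ALDOC, an aldolase isoform known from brain and from hypoxia responses, had the largest difference of the 16. It was at 27.53, 25.36 and 28.79 FPKM in Era and at 35.12, 32.57 and 31.41 FPKM in Era+VK. Every Era+VK library was above every Era library, with means of 27.2 ± 1.74 and 33.0 ± 1.90 FPKM, a difference of 21.3%. The log2 fold change was 0.27 (SE 0.06, 95% interval 0.13 to 0.41), but the adjusted p in limma was 0.113, past the threshold in none of the 14 alternatives (0.0870 to 0.304). ALDOA, the abundant aldolase of the same step, was at 538.81, 550.75 and 540.05 FPKM in Era and at 523.93, 538.92 and 545.47 FPKM in Era+VK. The share of ALDOC in the 2 aldolases was 4.77% ± 0.338 in Era and 5.81% ± 0.429 in Era+VK, without overlap. AC093512.2, which shares the strand and locus of ALDOA, was at 31.49 to 73.71 FPKM, with means of 62.4 in Era and 44.3 in Era+VK. Part of the ALDOA reads could have been split with it, and unequally between the groups, which was not tested.

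Phosphofructokinase, the committed step, is built from 3 kinds of subunit. PFKL was at 49.30, 50.76 and 48.24 FPKM in Era and at 53.40, 50.91 and 52.08 FPKM in Era+VK. PFKP was at 72.89, 74.26 and 73.38 FPKM in Era and at 70.67, 69.87 and 70.50 FPKM in Era+VK. PFKL had higher values in every Era+VK library and PFKP lower ones, with log2 fold changes of 0.08 and -0.06 and adjusted p of 0.425 and 0.455 in limma. The groups' sums with PFKM differed by less than the spread between libraries, 137.17 ± 1.94 FPKM in Era against 137.52 ± 1.64 FPKM in Era+VK. Within it the share of PFKL was 36.0% ± 0.412 in Era and 37.9% ± 0.461 in Era+VK, and that of PFKP 53.6% ± 0.545 and 51.2% ± 0.364.

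The bifunctional PFKFB enzymes set the level of the fructose bisphosphate that activates phosphofructokinase. PFKFB3, the form with the strongest kinase activity, was at 45.58, 43.93 and 43.70 FPKM in Era and at 45.41, 42.66 and 44.83 FPKM in Era+VK. PFKFB4 was at 14.57 to 16.49 FPKM in Era and at 14.19 to 14.70 FPKM in Era+VK (log2 fold change -0.10, 95% interval -0.22 to 0.02), and PFKFB2 was at 2.50 to 3.15 FPKM over all 6 libraries. Groups overlapped for each of them. GPI, which converts glucose phosphate to fructose phosphate, and TPI1, which interconverts the triose phosphates, had log2 fold changes of -0.03 and -0.02. The rows of TPI1 pseudogenes summed to 28.2 to 30.4 FPKM, up to 6.09% of TPI1 in a library, so its level is uncertain by that much where reads could be split.

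In the payoff steps, ENO1, the main enolase, was the gene with an unadjusted p under 0.05. It was at 795.07, 776.11 and 785.03 FPKM in Era and at 726.26, 727.77 and 723.31 FPKM in Era+VK. The Era+VK libraries were nearly identical and all under Era, with means of 785 ± 9.49 and 726 ± 2.27 FPKM, a difference of -7.59%. The log2 fold change of -0.11 (95% interval -0.22 to -0.01) had an unadjusted p of 0.0380 and an adjusted p of 0.290 in limma, and it shrank to -0.02 after quantile normalization. ENO2, the neuronal enolase, was at 79.89 to 85.15 FPKM in Era and at 77.78 to 85.29 FPKM in Era+VK.

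PKM, pyruvate kinase, which makes pyruvate and ATP, was at 398.60, 386.79 and 395.32 FPKM in Era and at 376.26, 381.32 and 385.33 FPKM in Era+VK. The groups did not overlap, but the log2 fold change was only -0.05 with an adjusted p of 0.635 in limma. GAPDH, the dehydrogenase that makes NADH, was the most abundant gene of all 37 at 2852 ± 21.2 FPKM in Era against 2915 ± 79.4 FPKM in Era+VK, and its log2 fold change of 0.03 had a 95% interval from -0.10 to 0.17 and was -0.00589 after median of ratios scaling. PGK1 and PGAM1, the kinase and mutase between GAPDH and the enolases, had log2 fold changes of -0.01 and 0.03.

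**Figure D2:**
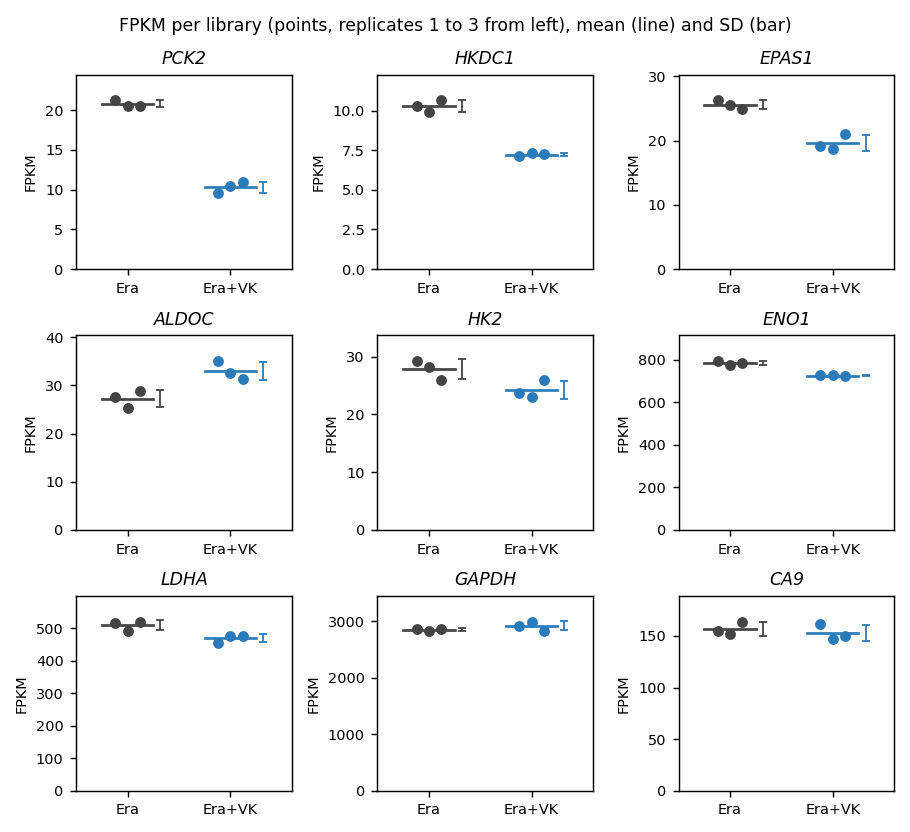
FPKM of 9 genes in each library (vertical axes from 0), with replicates 1 to 3 from left to right as points, the group mean as a line and the SD as a bar (n = 3 per group). In the plots of PCK2, HKDC1 and EPAS1 all Era+VK points lie under all Era points, with means of 10.3, 7.22 and 19.7 FPKM against 20.8, 10.3 and 25.6 FPKM. ALDOC points lie higher in Era+VK, those of ENO1 and LDHA slightly lower, and those of HK2, GAPDH and CA9 overlap.

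At the end of the path, LDHA, the lactate dehydrogenase subunit that favours lactate formation, was at 516.92, 490.78 and 519.81 FPKM in Era and at 454.11, 475.17 and 475.32 FPKM in Era+VK. Every Era+VK value was under every Era value, with means of 509 ± 16.0 and 468 ± 12.2 FPKM, a difference of -8.05%. The log2 fold change of -0.12 (95% interval -0.23 to -0.01) had an unadjusted p of 0.0404 and an adjusted p of 0.295 in limma. LDHB, the subunit that favours pyruvate formation, was at 186.43, 184.73 and 184.95 FPKM in Era and at 165.94, 188.73 and 168.30 FPKM in Era+VK. Era+VK replicate 2 lay above all Era libraries and the others under them, and the ratio of LDHA to LDHB overlapped between the groups at 2.75 ± 0.0801 and 2.69 ± 0.158.

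SLC16A1 (MCT1), a monocarboxylate transporter that carries lactate and pyruvate, was at 38.84, 39.09 and 35.87 FPKM in Era and at 35.29, 34.75 and 35.25 FPKM in Era+VK. The groups did not overlap, and the log2 fold change of -0.11 had an unadjusted p of 0.0483 and an adjusted p of 0.313 in limma. PDK1, which inhibits pyruvate dehydrogenase by phosphorylation, was at 5.85 to 6.78 FPKM and PDHA1, the catalytic subunit that it phosphorylates, at 12.38 to 14.34 FPKM over the 6 libraries. Neither was called, with log2 fold changes of -0.05 and 0.06.

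EPAS1 was the third gene to fall. It encodes HIF-2α, the oxygen-regulated subunit that shares its partner ARNT with HIF1A and drives genes of angiogenesis and iron handling. EPAS1 was at 26.34, 25.56 and 24.94 FPKM in Era and at 19.23, 18.73 and 21.04 FPKM in Era+VK. No Era+VK library reached the lowest Era library, and the means were 25.6 ± 0.702 and 19.7 ± 1.22 FPKM, so EPAS1 fell by 23.2%. The log2 fold change was -0.37 (SE 0.05, 95% interval -0.49 to -0.24) with an adjusted p of 0.0340 in limma, 54th in order of p among all genes tested and 150th from the lowest log2 fold change.

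The call of EPAS1 was the least stable of the 3 and held in 6 of 14 alternatives, with the log2 fold change between -0.41 and -0.33 throughout. Without Era replicate 1, 2 or 3 the adjusted p in limma was 0.145, 0.177 and 0.119, without Era+VK replicate 1 or 2 it was 0.0973 and 0.0578, and without Era+VK replicates 2 and 3 together it was 0.0897 (log2 fold change -0.40).

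**Figure D3:**
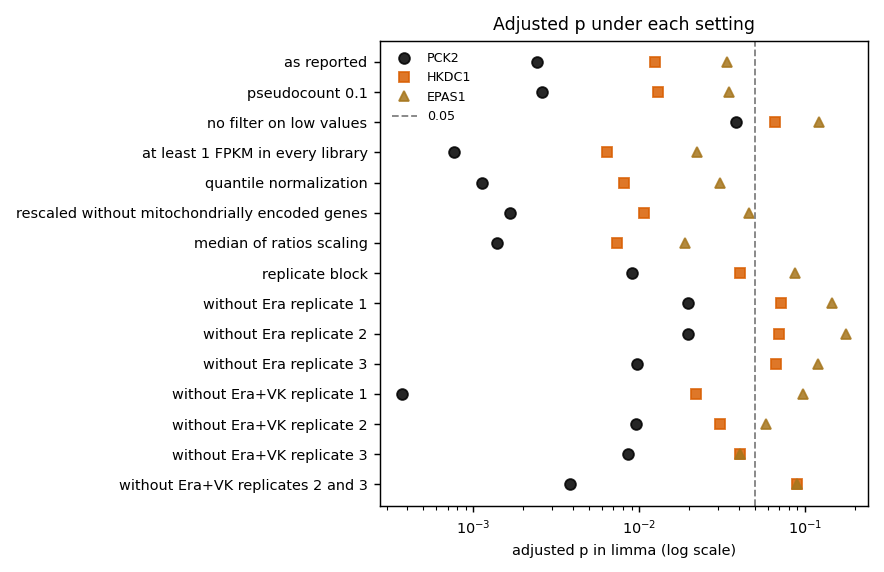
Adjusted p in limma (horizontal axis, log scale) of PCK2, HKDC1 and EPAS1 in the reported fit and in the 14 alternatives (rows). PCK2 stays left of the dashed line at 0.05 in all of them, with at most 0.0385, while HKDC1 lies left of it in 9 and EPAS1 in 6 of the 14.

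HIF1A, the other oxygen-regulated subunit, was at 182.98, 172.76 and 185.82 FPKM in Era and at 175.53, 159.02 and 175.00 FPKM in Era+VK. The groups overlapped, and the log2 fold change of -0.09 (95% interval -0.22 to 0.04) had an adjusted p of 0.479 in limma. HIF1A was 6.76 to 7.45 times the FPKM of EPAS1 in Era and 8.32 to 9.13 times in Era+VK, so the ratio was higher in every Era+VK library. Both factors are regulated mainly at the protein level by oxygen, which these values do not measure.

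The stretch upstream of the RefSeq start of EPAS1 (ENSG00000116016, chr2:46293667-46386703, plus strand of GRCh38 in GENCODE 29) is printed as that of the regulator that fell, from RefSeq of GRCh38.p14 at chr2:46297157-46297401, plus strand, with the hypoxia core in capitals. It lies inside the annotated gene, downstream of its first annotated exons and clear of them.
EPAS1: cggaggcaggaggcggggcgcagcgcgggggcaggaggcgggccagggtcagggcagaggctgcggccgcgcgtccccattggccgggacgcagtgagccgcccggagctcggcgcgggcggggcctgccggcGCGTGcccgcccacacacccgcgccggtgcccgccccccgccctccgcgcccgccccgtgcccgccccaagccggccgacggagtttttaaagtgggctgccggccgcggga
The stretch of 245 bases held 1 core, 117 bases upstream of the RefSeq start, and 81.6% of its bases were G or C, against 53.8% upstream of HKDC1 and 71.6% upstream of HK2. The core TGATGNAA, to which ATF4 binds in many amino acid genes, was found on either strand in 3.14% of all windows and in 3.39% of the 59 windows of the genes described here, all of the latter in HK1. The window of PCK2 begins within an annotated exon and is not printed, so that it says little about the stretch ahead of the gene.

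None of the 5 hypoxia-induced genes tested beside these factors was called, and their groups overlapped. CA9, a carbonic anhydrase of the cell surface and a textbook HIF1A target, was at 154.56, 151.64 and 163.80 FPKM in Era and at 161.76, 147.41 and 149.48 FPKM in Era+VK, with overlapping groups. Its log2 fold change was -0.04 (95% interval -0.16 to 0.09), and 0.05 without Era+VK replicates 2 and 3. ADM, the vasodilator peptide adrenomedullin, was at 36.89 to 39.82 FPKM in Era and at 33.75 to 38.65 FPKM in Era+VK (log2 fold change -0.09, 95% interval -0.22 to 0.05). NDRG1, a stress-responsive gene, was at 40.07 to 44.43 and at 36.15 to 40.92 FPKM (log2 fold change -0.14), with an adjusted p of 0.326 in limma. BNIP3, a mitophagy receptor, and ANKRD37 had log2 fold changes of -0.03 and 0.06, the latter with the widest interval of the 34 genes, from -0.25 to 0.36. EGLN3, an oxygen-sensing prolyl hydroxylase, was listed at 0.12 FPKM or less in every library.

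Around these genes, 99 further genes of glucose transport, glycolysis, gluconeogenesis, pyruvate use, the pentose phosphate pathway, glycogen and the HIF pathway were looked up, of which 74 were tested. None was called in limma, while 17 had an unadjusted p under 0.05, 9 of them lower and 8 higher in Era+VK, and 15.8% of all genes tested were under it. The median log2 fold change of the 74 genes was 0.02, against 0.03 over all genes tested. After median of ratios scaling it was -0.0142, with 0.00135 over all genes tested. The means of 36.7% of all genes tested were lower in Era+VK, so a list with mostly higher means does not by that stand apart from them.

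The 21 tested genes of further HIF targets comprised 14 with a lower mean and 7 with a higher one, and 36.7% of all genes tested had a lower mean. A total of 7 had an unadjusted p under 0.05 in limma and all 7 were lower in Era+VK, but none was called. That p was under 0.05 for 15.8% of all genes tested, in either direction, and the split of this share by direction is not given here. Of those chosen after their values were seen, VEGFA, the angiogenic growth factor, was at 16.38 to 17.83 FPKM in Era and at 13.62 to 14.92 FPKM in Era+VK, with a log2 fold change of -0.25 and an adjusted p of 0.0868 in limma. LOX, the collagen crosslinking enzyme, was likewise at 121.14 to 127.11 and at 96.74 to 111.71 FPKM, with a log2 fold change of -0.27 and an adjusted p of 0.103.

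Of the 6 tested genes that control HIF, 5 had a higher mean in Era+VK, while 36.7% of all genes tested had a lower one. ARNT, the shared partner subunit, was at 7.23 and 7.90 FPKM in Era and Era+VK (log2 fold change 0.11, adjusted p 0.410 in limma). EGLN1, the main oxygen-sensing prolyl hydroxylase, was at 30.46 to 31.53 FPKM in Era and at 30.02 to 33.34 FPKM in Era+VK.

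Of the 17 tested genes of pyruvate use, 13 had a higher mean in Era+VK, while 36.7% of all genes tested had a lower one. MPC1, a subunit of the mitochondrial pyruvate carrier, had the largest difference, at 4.50, 4.41 and 4.72 FPKM in Era and at 4.92, 7.07 and 6.27 FPKM in Era+VK. Its log2 fold change of 0.34 (SE 0.11) had an adjusted p of 0.197 in limma. The values of 7.07 and 6.27 FPKM are those of the libraries with globin transcripts, and without those 2 libraries the log2 fold change was 0.10. Over the 14 alternatives the adjusted p of MPC1 in limma ran from 0.0437, without Era+VK replicate 1, to 0.571. Its partner MPC2, chosen after its values were seen, was at 9.42 to 9.61 FPKM in Era and at 10.46 to 13.02 FPKM in Era+VK.

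The largest differences among further glucose transporters, glycolysis genes and gluconeogenesis genes were those of SLC2A12, a glucose transporter (log2 fold change 0.18, adjusted p 0.301 in limma), BPGM, which makes bisphosphoglycerate (0.22, adjusted p 0.454), and SLC37A4, which carries glucose phosphate into the endoplasmic reticulum (0.14, adjusted p 0.250). Among the pentose phosphate genes it was that of PGD, an NADPH-making dehydrogenase (0.13, adjusted p 0.241). All 4 had higher means in Era+VK. Of the tested genes in these lists, 4 of 4 glucose transporters, 2 of 3 of glycolysis, 3 of 6 of gluconeogenesis and 6 of 8 of the pentose phosphate pathway had a higher mean in Era+VK, as did 2 of 9 glycogen genes. The mean of 36.7% of all genes tested was lower.

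**Figure D4:**
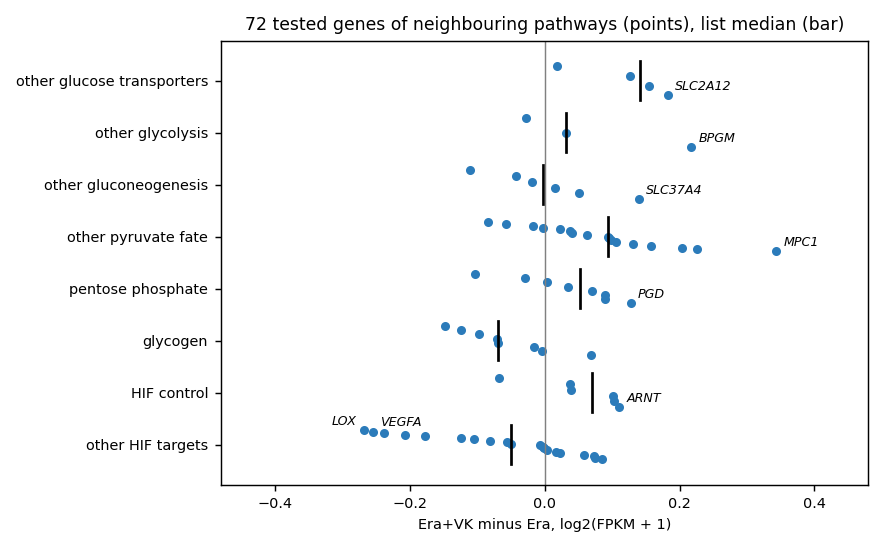
Log2 fold changes of 72 of the 74 tested genes of 8 neighbouring lists (points, Era+VK minus Era on the log2(FPKM + 1) scale), with the median over all tested genes of a list as a bar and some genes named. No point passed an adjusted p of 0.05 in limma, and the points drawn run from -0.27 for LOX to 0.34 for MPC1.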

How the data were processed

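The authors deposited one table per library with FPKM values for 33496 genes. The submitters' processing notes name cutadapt, HISAT2 and StringTie 2.1.6, in no stated role. They also name the mouse build mm10, whereas the gene identifiers are human. The labels number the cell line upwards from sample to sample, and all 6 were taken as ARPE-19. FPKM are relative to a library's mapped fragments, so a change in abundant genes moves all others. Low values of single-exon genes were searched for whole-read steps (highest concentration 0.381 on a scale to 1). No reference value is given here for genes without steps, so this does not decide whether steps are present. No count test was run and no counting error is given.

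The 11981 genes averaging 1 FPKM or more were tested on log2(FPKM + 1) with limma 3.58.1 (trend) in R 4.3.3, Era+VK against Era, with Benjamini-Hochberg adjustment over all of them and a threshold of 0.05. The fit was tested on simulated data. An exact permutation test of 3 against 3 libraries cannot go below a p of 0.1 and was not used for calls. Ratios and shares of genes were described and not tested. Alternatives were a pseudocount of 0.1, other filters and scalings, the replicate number as a block, and libraries left out.

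The genes and lists were chosen with earlier results of these data known. Named are all 39 genes and, in each further list, genes called and the one with the largest difference, except that the values of 2 genes are not reported here. Positions are from GENCODE 29 (GRCh38), matched by identifier for 37 genes. Promoter windows overlapping annotated exons were cut or not printed. Replicate numbers were not taken to pair libraries.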

Additional observations from a re-analysis of the deposited data

How the results depend on the processing

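Of 476 log2 fold changes of single genes (34 genes in 14 alternatives), 441 kept their direction and their side of the threshold, 13 lost the call (HKDC1 in 5 and EPAS1 in 8) and 22, in 13 genes that were not called, changed sign, between -0.107 (ANKRD37) and 0.0466 (CA9). The count of 74 genes over all genes tested was 1 with no filter on low values, where 31325 genes were adjusted for, 122 with at least 1 FPKM in every library, 112 after quantile normalization, 118 after median of ratios scaling, 35 without Era+VK replicates 2 and 3, and 2 to 70 when each library was left out in turn. It was lowest without an Era library, at 2, 2 and 5 without Era replicate 1, 2 and 3, and was 42 without Era+VK replicate 3. Called genes split into 16 higher and 58 lower in the reported fit and into 13 higher and 105 lower after median of ratios scaling. For other changes in these counts the cause was not tested. Of the 39 genes, 3 were called, but 1 (PCK2) with no filter, 1 (PCK2) without Era+VK replicates 2 and 3, and 1 to 3 when each library was left out. It was PCK2 alone without Era replicate 1, 2 or 3. Among the further pathway genes 0 were called, and 0 to 1 with each library left out, MPC1 without Era+VK replicate 1 and STC2 without Era+VK replicate 2.

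With the replicate number as a block, 42 of all genes were called, and of the 3 genes EPAS1 had an adjusted p of 0.0864 in limma and was not called. The deviations of same-numbered libraries correlated at 0.0709, 0.1035 and 0.0208, all positive. Those of different-numbered libraries ran from -0.1138 to 0.0403, the latter between Era replicate 3 and Era+VK replicate 1. Such small values do not decide whether libraries were paired. The pairing was not used, since the paper states none.

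After quantile normalization the log2 fold changes of ALDOA, TPI1 and PKM were 0.0458, 0.0154 and 0.0123, and that of ENO1 was -0.0197 against -0.11 as reported. After median of ratios scaling those of GAPDH, PGAM1 and ENO2 were -0.00589, -0.00844 and -0.0356, and ENO2 was at -0.000777 after rescaling without mitochondrially encoded genes. Without Era+VK replicates 2 and 3, PFKFB3 was at 0.0319 and CA9 at 0.0466. With each library left out, the ranges crossed zero for PFKFB2 (-0.109 to 0.0144), PFKFB3 (-0.0213 to 0.0228), PGK1 (-0.0405 to 0.00732), ENO2 (-0.0231 to 0.0425), PDK1 (-0.0898 to 0.00202), BNIP3 (-0.0698 to 0.00110) and ANKRD37 (-0.107 to 0.171). FPKM carry no depth, so a low value such as that of FBP1 or EGLN3 cannot be given a detection limit.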
